A study of Mus musculus with 8 samples.

Results

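The plasminogen activation system was followed through 7 genes, each matched by symbol to 1 row of the deposited counts and taken from 39179 genes in all: the activators Plat and Plau, the urokinase receptor Plaur, the annexin pair Anxa2 and S100a10, and the serpin inhibitors Serpine2 and Serpinb2. All 7 passed the filter on low counts, as did 16192 genes overall. RNA sequencing had been run on total RNA of mouse pancreatic ductal adenocarcinoma cells of the iKPC model. In its labels every line carries a transgene under a tetracycline-controlled tetO element, ROSA_rtTA (the transactivator that switches such elements on with doxycycline) and p48-Cre (a Cre recombinase driven from the p48, or Ptf1a, gene of pancreatic progenitors). There were 4 lines, taken as biological replicates, and each was sequenced with overexpressed WT-USP21 and with overexpressed ED-USP21, giving 8 libraries. USP21 is a deubiquitinating enzyme, and the labels do not spell out ED. Lines 1 and 2 have the background FVB/C57Bl6 and lines 3 and 4 the background C57BL/6. The sources used here do not say whether a line is 1 clone or whether doxycycline was present. Cells lacking a construct were not analysed here.

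Plasminogen is a circulating zymogen, made mainly in the liver, that is cut into the broad serine protease plasmin by tissue-type activator (Plat) or urokinase (Plau). Urokinase is held at the cell surface by its lipid-anchored receptor (Plaur), and plasminogen and tissue-type activator are gathered there by a complex of annexin A2 and S100A10. Serpins trap the activators, and pancreatic tumour cells are known for high levels of the urokinase receptor and of annexin A2.

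The libraries held 72828184 to 107551210 gene reads. Levels are in CPM, reads per 1000000 of the TMM-adjusted library total. Usp21 itself stood, in lines 1 to 4, at 147, 944, 539 and 941 CPM in the WT-USP21 libraries and at 1657, 3132, 1661 and 2721 CPM in the ED-USP21 libraries. It was higher with ED-USP21 in 4 of 4 lines. Both exact 2-sided tests run on it gave the smallest p they can: 0.0286 in the permutation test over 70 arrangements, which ignores the pairing by line, and 0.125 in the sign-flip test within lines over 16 patterns, added after the values were seen. The adjusted p within lines was 0.205 in edgeR and 0.115 in DESeq2, and edgeR without the pairing gave 0.9999. With line 1 left out, edgeR gave an adjusted p of 0.000778 within lines and 0.0288 without the pairing. Endogenous and introduced Usp21 share this row, and their reads were not separated. The level of Usp21 RNA and the form of the construct cannot be told apart between these groups. Lines 2 and 4 lay close together: 717 genes in the WT-USP21 and 703 in the ED-USP21 libraries were at least 2-fold apart between them. That number was 1382 and 1473 between lines 2 and 3, and 1467 and 1284 between lines 3 and 4. Between line 1 and any other line it was 3364 to 4045, so a count of 4 lines may overstate the independent ones. The constructs within a line were apart in 1167 to 1718 genes. Ductal epithelial markers summed to 6223 to 11280 CPM with WT-USP21 and 6697 to 9757 CPM with ED-USP21, although Epcam was at most 0.314 CPM in lines 2 to 4. Fibroblast markers summed to 6.85 to 15.0 CPM with WT-USP21 and 4.78 to 7.84 CPM with ED-USP21, with Dcn and Lum at 0 reads in every library. The 4 immune markers matched of 5 summed to 6.00 to 12.9 against 5.03 to 15.8 CPM, nearly all from Cd68, and the 4 endothelial markers to 2.41 to 7.47 against 0.655 to 0.860 CPM. That gap lay in Kdr in lines 2 to 4 and in Cdh5 in line 1, while Pecam1 and Vwf were at most 0.238 CPM in every library. Any part of such cells in the results was not tested.

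The promoter windows of 3 members are shown because of their levels across the lines: Serpine2 was the member with the largest fold between its highest and lowest library, whereas Plaur and Anxa2 were abundant and did not pass the test between lines. Each is the 250 bases before the RefSeq start, 5′ to 3′ along the gene, from build GRCm38.p6, a later build than the mm9 of the submitters' processing notes. Capitals mark the matches to the searched motifs: the AP-1 site TGANTCA, the TATA box TATAAA and the GC box GGGCGG, each on both strands.
Serpine2, chr1:79858666-79858915, minus strand: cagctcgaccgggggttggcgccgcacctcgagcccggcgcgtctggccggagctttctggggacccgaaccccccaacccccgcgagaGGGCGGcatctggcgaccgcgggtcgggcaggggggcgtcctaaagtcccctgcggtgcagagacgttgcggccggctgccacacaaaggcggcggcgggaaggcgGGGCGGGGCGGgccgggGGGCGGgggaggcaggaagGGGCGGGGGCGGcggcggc
Plaur, chr7:24462233-24462482, plus strand: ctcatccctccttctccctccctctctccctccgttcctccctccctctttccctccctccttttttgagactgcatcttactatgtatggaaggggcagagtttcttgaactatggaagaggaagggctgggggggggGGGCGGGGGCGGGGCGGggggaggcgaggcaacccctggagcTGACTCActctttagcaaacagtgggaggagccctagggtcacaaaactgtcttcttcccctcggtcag
Anxa2, chr9:69453433-69453682, plus strand: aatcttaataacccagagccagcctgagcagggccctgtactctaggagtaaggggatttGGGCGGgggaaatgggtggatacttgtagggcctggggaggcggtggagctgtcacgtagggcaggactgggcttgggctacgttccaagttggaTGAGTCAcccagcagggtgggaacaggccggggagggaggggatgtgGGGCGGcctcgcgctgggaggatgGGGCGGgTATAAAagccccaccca

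The Serpine2 window was 78.8% G and C with 34 CpG dinucleotides and held 6 GC boxes, of which the pair at -55 and -50 share 1 base. The Plaur window was 59.6% G and C and held 3 GC boxes, of which the pair at -105 and -100 share 1 base, and 1 AP-1 match from -69 to -63. Anxa2 had 62.4% G and C, 3 GC boxes, 1 AP-1 match from -95 to -89 and 1 TATA box from -17 to -12. Serpinb2, whose entry has 2 starts, had overlapping windows of 32.4% and 38.4% G and C. Both windows hold the same AP-1 match and the same TATA letters. These begin at -94 and -29 from start 1, and at -181 and -116 from start 2. Among 32841 windows of the same length, 6.75% held the AP-1 letters, 12.4% the TATA letters and 32.7% the GC box letters, and the median window had 52.4% G and C and 6 CpG. A search for the TCF site CTTTGAT, present in 3.21% of windows, found no match in the 4 genes, which says only that these letters are not in these windows. No motif of one kind overlapped one of another kind, and a match is no evidence of binding. Plat, Plau and S100a10 had no entry.

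Per kilobase of exon, the annexin pair was the most abundant of the 7 genes and the serpins Serpine2 and Serpinb2 the least. Over the 8 libraries, Anxa2 stood at 540 to 687 CPM per kb and S100a10 at 302 to 491. Plaur followed at 60.4 to 112 CPM per kb. The activators came next, Plat at 7.99 to 21.2 and Plau at 6.11 to 34.7 CPM per kb, and their ranges overlap, so that their order depended on the line. Serpinb2 stood at 0.165 to 0.741 CPM per kb and Serpine2 at 0.00116 to 0.0719. The ranges of the other neighbours in this order do not overlap. In line 1 urokinase exceeded tissue-type activator, with Plau at 31.0 (WT-USP21) and 34.7 (ED-USP21) CPM per kb against 15.5 and 21.2 for Plat. In lines 2 to 4 the order was the other way in all 6 libraries, with Plat at 7.99 to 14.0 and Plau at 6.11 to 8.66 CPM per kb.

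**Figure D1:**
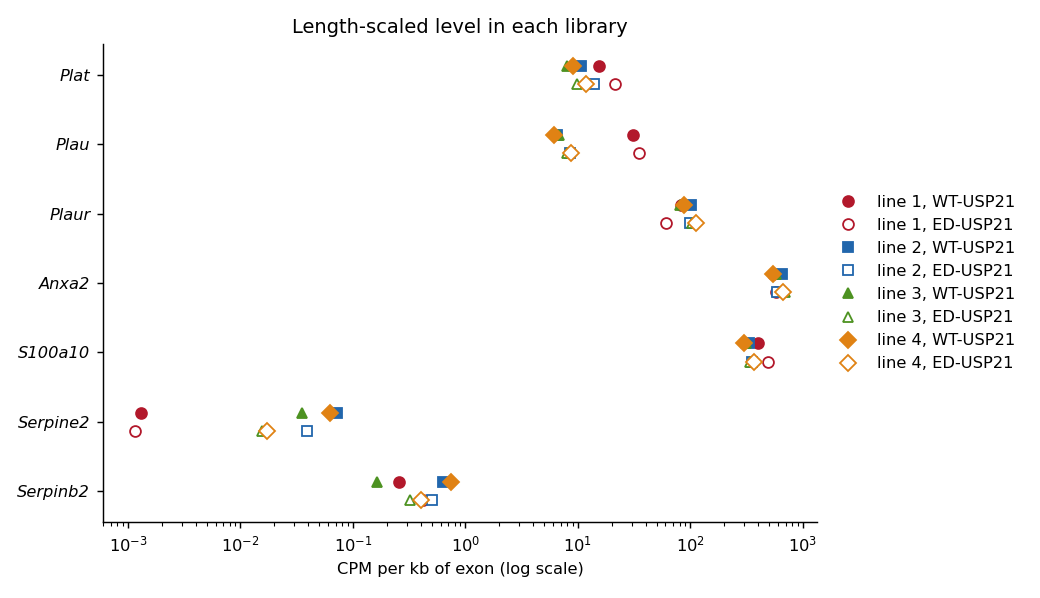
Level of each gene in CPM per kb of exon on a log axis, 1 point per library, filled for WT-USP21 and open for ED-USP21, with colour and shape for the cell line. Anxa2 (540 to 687) and S100a10 (302 to 491) lie highest, and line 1 lies apart from the other lines in Plau and Serpine2.

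The first comparison is between the constructs. Both activators and S100a10 were lower with WT-USP21 in 4 of 4 lines, by small amounts, Serpine2 was higher in lines 2 to 4 (1 read in each library of line 1), and none of the 7 passed in edgeR, while DESeq2 with the block called Plat and Plau lower. Within lines, edgeR (quasi-likelihood test with the cell line as a block, called at an adjusted p under 0.05 over all genes tested) called 0 of the 7 members, against 0.0247% of all genes tested (4 of 16192). Without the block it called 0 members and 0% of all genes. At an unadjusted p under 0.05 within lines there were 3 members lower and 1 higher, where 2.88% of all genes were lower and 8.28% were under that p in either direction. The 3 members lower in 4 of 4 lines stand beside 7.73% of all genes, and the 4 members with 1 direction in 4 of 4 lines beside 16.7%, where Serpine2 counts although it had 1 read in each library of line 1. The median log2 difference of the 7 was -0.12, against 0.00 over all genes tested. The construct groups overlapped in all 7 genes when the lines were not paired, but the share of all genes that do so was not counted.

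Plat (ENSMUSG00000031538), the activator best known for clot dissolution, had the most even difference of the 7. In lines 1 to 4 it stood at 96.5, 66.6, 49.9 and 55.8 CPM with WT-USP21, and with ED-USP21 at 132, 87.2, 61.1 and 73.8 CPM. Line 1 was the highest and line 3 the lowest with either construct, and the ED-USP21 library exceeded its partner 1.37-, 1.31-, 1.22- and 1.32-fold in lines 1 to 4. Within lines the log2 difference (WT-USP21 less ED-USP21) was -0.38 (SE 0.06, SD of the 4 line differences 0.07, n = 4), and the edgeR adjusted p was 0.160. Without the block the difference was -0.40, with an edgeR adjusted p of 0.9999. The group levels were 67.2 ± 20.7 against 88.6 ± 30.9 CPM (SD, n = 4 each).

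The call on Plat turned on the tool and on line 1. DESeq2 with the block gave it an adjusted p of 1.97e-06 at the same size (-0.38) and called it lower, along with Plau, 2 of 7 members against 0.573% of all genes lower. Without line 1, edgeR gave Plat -0.36 (SE 0.06, adjusted p = 0.0267) and called it lower, 1 of 7 members against 2.06% of all genes lower. With neither line 1 nor the block, it called 0 members against 2.35% of all genes. With line 2, 3 or 4 left out instead it did not pass.

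Plau (ENSMUSG00000021822), the urokinase gene, differed more between line 1 and the other lines than between the constructs. It stood at 73.5, 15.5, 16.0 and 14.5 CPM with WT-USP21 in lines 1 to 4 and at 82.0, 19.9, 19.0 and 20.5 CPM with ED-USP21. The libraries of line 1 were far above the other 6, which lay between 14.5 and 20.5 CPM, and each WT-USP21 library was below its partner. Within lines the log2 difference was -0.32 (SE 0.08), with line differences of -0.16, -0.37, -0.25 and -0.50, and an edgeR adjusted p of 0.314. DESeq2 with the block gave an adjusted p of 0.0420. With line 1 left out edgeR gave -0.37 (SE 0.08, adjusted p = 0.0547).

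**Figure D2:**
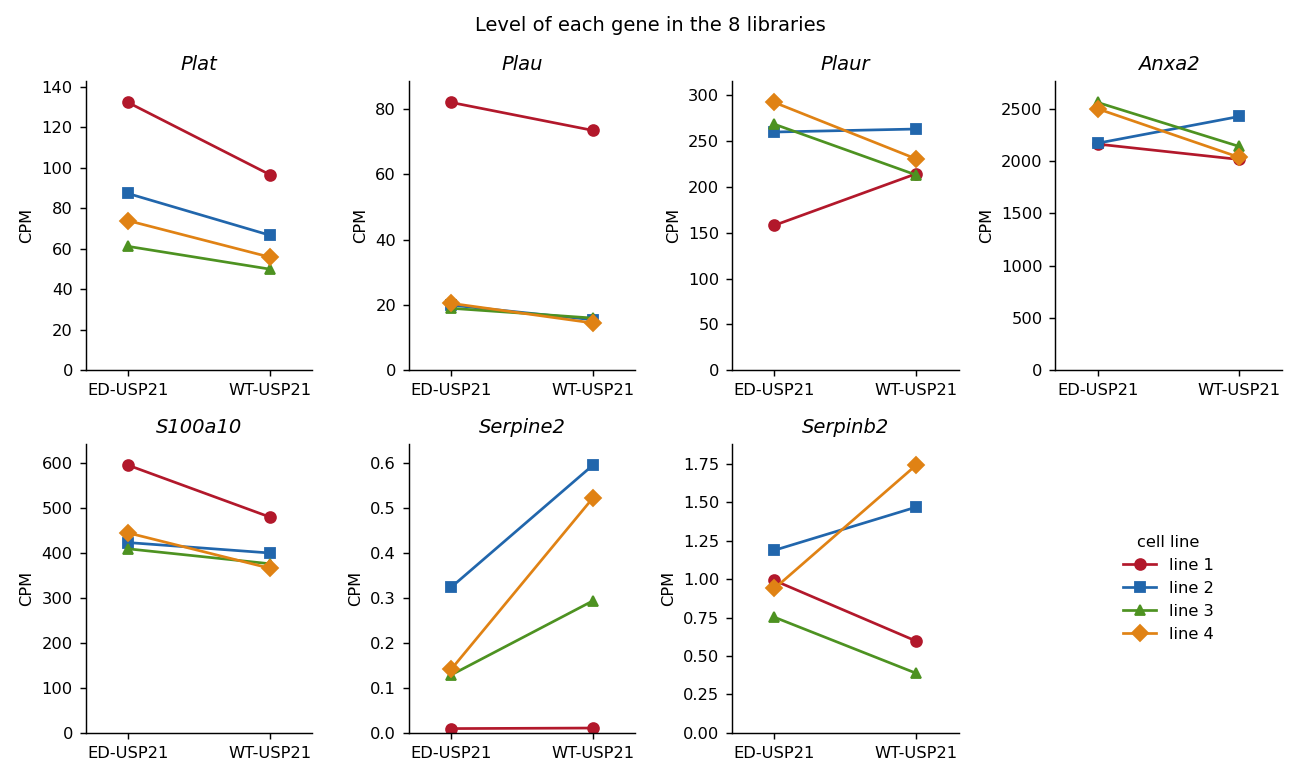
CPM (linear axes from 0) of each gene with ED-USP21 and WT-USP21, with a line joining the 2 libraries of a cell line. Plat, Plau and S100a10 slope down towards WT-USP21 in every line, and Plau in line 1 (73.5 and 82.0 CPM) lies far above the other lines.

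The receptor Plaur (ENSMUSG00000046223) had differences of opposite sign in different lines. Its levels in lines 1 to 4 were 214, 263, 213 and 231 CPM with WT-USP21 and, in the ED-USP21 libraries, 158, 260, 268 and 292 CPM. WT-USP21 was higher in line 1 (log2 0.44), about level in line 2 (0.02) and lower in lines 3 and 4 (-0.33 and -0.34). Within lines the fitted difference was -0.06 (SE 0.14, edgeR adjusted p = 0.956), and its sign turned with line 3 or line 4 left out. The ED-USP21 library of line 1 was the lowest of the 8 and that of line 4 the highest.

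Of the annexin pair, the small partner showed the more even difference. S100a10 (ENSMUSG00000041959), which carries the plasminogen-binding end of the complex, stood at 480, 400, 376 and 366 CPM with WT-USP21 in lines 1 to 4 and at 596, 423, 409 and 445 CPM with ED-USP21. Each WT-USP21 library was below its partner, with line 1 the highest in both groups. The log2 difference within lines was -0.20 (SE 0.07, edgeR adjusted p = 0.479). Anxa2 (ENSMUSG00000032231), the calcium-dependent membrane binder, stood at 2017, 2428, 2141 and 2037 CPM with WT-USP21 and at 2164, 2172, 2562 and 2502 CPM with ED-USP21. It was the steadiest of the 7, its highest library only 1.27 times its lowest, with WT-USP21 lower in 3 of 4 lines and higher in line 2. The log2 difference was -0.12 (SE 0.09, edgeR adjusted p = 0.809).

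Serpine2 and Serpinb2 had the fewest reads of the 7 genes, and Serpine2 was near the detection floor. Serpine2 (ENSMUSG00000026249), protease nexin-1, which inhibits urokinase and thrombin, had 1, 60, 28 and 45 reads with WT-USP21 in lines 1 to 4 and 1, 24, 12 and 11 reads with ED-USP21. Line 1 was almost without it in both libraries, and in each of the other lines the WT-USP21 library held more reads. Scaled to the library totals, the ratio of WT-USP21 to ED-USP21 was 1.84 in line 2 (95% exact binomial interval 1.13 to 3.09), 2.28 in line 3 (1.12 to 4.92) and 3.69 in line 4 (1.88 to 7.91). In line 1 it was 1.13, with an interval of 0.0144 to 88.6, so that no difference was detectable there at this depth. These intervals cover counting error only. Its log2 difference within lines was 1.22 (SE 0.38), the largest of the 7, with an edgeR adjusted p of 0.447.

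Serpinb2 (ENSMUSG00000062345), plasminogen activator inhibitor of type 2, had 55, 148, 37 and 150 reads with WT-USP21 in lines 1 to 4, or 0.597, 1.47, 0.388 and 1.74 CPM. With ED-USP21 it had 103, 88, 70 and 73 reads, or 0.992, 1.19, 0.753 and 0.940 CPM. WT-USP21 was lower in lines 1 and 3 and higher in lines 2 and 4, with ratios of 0.603 (95% exact binomial interval 0.426 to 0.844), 0.516 (0.337 to 0.779), 1.24 (0.943 to 1.63) and 1.85 (1.39 to 2.49) in lines 1, 3, 2 and 4. The log2 difference was -0.11 within lines (SE 0.36, edgeR adjusted p = 0.973) and 0.12 without the block, so its sign depends on the fit.

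**Figure D3:**
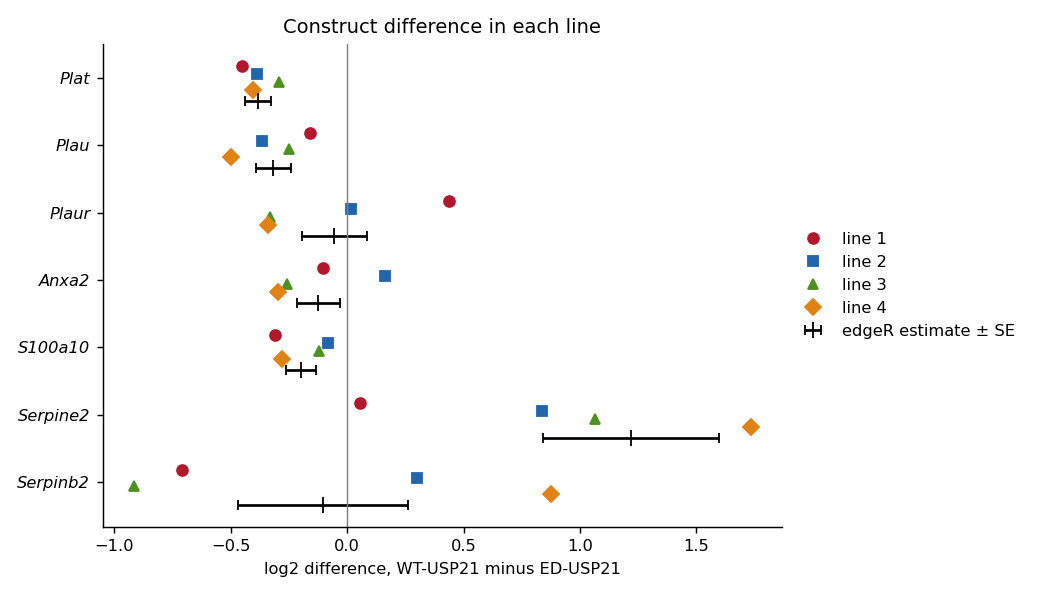
Log2 difference of WT-USP21 minus ED-USP21 for each gene, 1 coloured point per cell line, with the edgeR estimate within lines and its SE in black. Plat lies between -0.45 and -0.29 in the 4 lines, whereas Plaur and Serpinb2 have lines on both sides of 0.

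More members passed the test between lines than between constructs. In a test of whether a gene differs among the 4 lines beyond the spread left within them, edgeR called 4 of the 7 members, against 24.8% of all genes tested (4019 of 16192): Plau (adjusted p = 0.000359), Plat (0.00204), Serpine2 (0.0125) and S100a10 (0.0384). Plaur (adjusted p = 0.260), Serpinb2 (0.245) and Anxa2 (0.701) did not pass in the same edgeR test. The test speaks of these 4 lines only, and its spread comes from the 2 libraries of a line, which carry different constructs. Averaged over both libraries, Plau stood at 77.8, 17.7, 17.5 and 17.5 CPM in lines 1 to 4, so that line 1 was 4.43 times the mean of the others. Plat stood at 114, 76.9, 55.5 and 64.8 CPM (1.74 times in line 1) and S100a10 at 538, 412, 393 and 406 CPM (1.33 times). Serpine2 went the other way, with 2 reads in line 1 and 180 in lines 2 to 4. Relative to the TMM-adjusted library totals, lines 2 to 4 held 33.5 times as many (95% exact binomial interval 9.13 to 278, counting error only).

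Without line 1 the calls were lost. Among lines 2 to 4 alone, edgeR called 0 of the 7 members and 0.398% of all genes (65 of 16326), with adjusted p of 0.0927 for Plat, 0.984 for Plau, 0.443 for Serpine2 and 0.862 for S100a10. S100a10 also lost its call without line 2, 3 or 4 (edgeR adjusted p = 0.0550, 0.0811 and 0.0675). Line 1 carries the FVB/C57Bl6 label together with line 2. In line 2 Plau stood at 15.5 (WT-USP21) and 19.9 CPM (ED-USP21), near lines 3 and 4. Plat in line 2 averaged 76.9 CPM, between line 1 (114) and lines 3 and 4 (55.5 and 64.8). Any part of the background in these levels was not tested.

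Across the 8 libraries, Plat ranked most like Tnk2 (Pearson r = 0.98 of log2 CPM) and Eya3 (0.98), and S100a10 most like Hdgf (0.99) and Hn1 (0.98). Plaur ranked most like Clptm1 (0.97) and Pmm2 (0.96), Serpinb2 most like Mus81 (0.98) and the unnamed model Gm26724 (0.97), and Anxa2 like the ribosomal protein gene Rpl31 (0.92). These were among the top 2 of 12319 genes compared for each, and the libraries share cell lines in pairs, so they are descriptions with no test. The values of Plau and Serpine2 fall into 2 clusters, line 1 and the rest, so no correlation is given for them: 641 genes had an r over 0.95 with Plau, led by Celf1 and Tmem192, and 70 with Serpine2, led by Slco4a1 and Fbxo44. For Plat and Anxa2 that number was 26 and 0.

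A wider list of 44 genes of the system, none of them among the 7, was read the same way, and 29 passed the filter. Within lines edgeR called 0 of the 29, against 0.0247% of all genes, and without the block 0, against 0%. At an unadjusted p under 0.05 within lines 3 were higher and 2 lower, where 8.28% of all genes were under that p in either direction and 2.88% were lower. Their median log2 difference was 0.01. DESeq2 with the block called 2 of them higher (Sorl1 and Fn1) and 0 lower, against 2.56% of all genes in either direction. Without line 1, edgeR called 2 higher (Sorl1 and Fn1) and 1 lower (Spint2), against 4.57% of all genes.

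**Figure D4:**
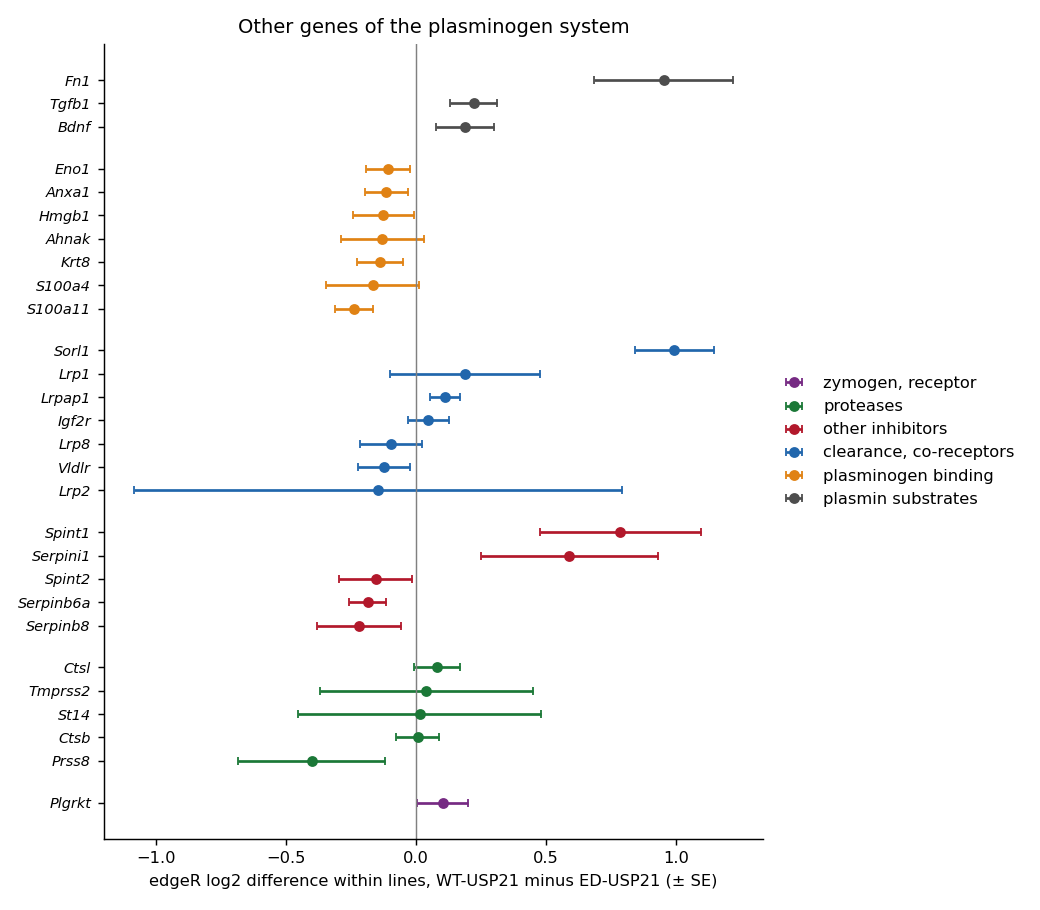
edgeR log2 difference within lines, WT-USP21 minus ED-USP21, with its SE, for 28 of the 29 tested genes of the wider list, coloured by role. Fn1 (0.95) and Sorl1 (0.99) lie farthest to the right, and none of the 29 passed in edgeR with all lines.

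The zymogen itself was barely present. Plg had reads only in the ED-USP21 libraries of lines 1 and 4, 1 read each, and the 3 untested genes Plg, F12 and Klkb1 held 6 reads together. Plgrkt, a transmembrane plasminogen receptor, stood at 28.3 ± 10.3 against 25.9 ± 6.85 CPM (SD, n = 4; log2 0.10, SE 0.10). Fibrinogen genes Fga, Fgb and Fgg had 0 reads in all libraries. Of the proteases listed here as possible activators of pro-urokinase, 5 of 7 were tested and edgeR called 0. Cathepsin genes Ctsb (245 ± 59.2 against 240 ± 24.4 CPM, log2 0.01) and Ctsl (325 ± 39.0 against 307 ± 29.3 CPM, log2 0.08) were abundant, and the membrane-anchored protease gene Prss8 had a log2 difference of -0.40 (SE 0.28; -0.64 to -0.17 with a line left out).

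Among the 10 other inhibitors, 6 were tested and edgeR called 0 between constructs. Serpinb6a, an intracellular serpin with related mouse genes, stood at 359 to 518 CPM, though sharing of reads with them was not tested. Low levels were thus not common to all serpins. Its log2 difference was -0.19 (SE 0.07). Spint1, an inhibitor of hepatocyte growth factor activator, had 0.79 (SE 0.31), and Serpini1 (neuroserpin, which inhibits tissue-type activator) 0.59 (SE 0.34).

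Clearance receptors and co-receptors had 7 of 9 genes tested, of which edgeR called 0 and DESeq2 with the block called Sorl1. Sorl1, a sorting receptor of the LDL receptor family that binds the urokinase receptor, stood at 34.1, 2.68, 4.04 and 2.59 CPM with WT-USP21 and at 20.5, 1.24, 1.49 and 1.56 CPM with ED-USP21. In 4 of 4 lines the WT-USP21 library was the higher, and line 1 was highest with either construct. Its edgeR log2 difference came to 0.99 (SE 0.15), at an adjusted p of 0.170. Lrpap1, a chaperone of that receptor family, had 0.11 (SE 0.06) and Vldlr, which takes up urokinase bound to its inhibitor, -0.12 (SE 0.10).

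The 7 plasminogen-binding surface genes were all tested and edgeR called 0, with a median log2 difference of -0.13. S100a11 had -0.24 (SE 0.07, lower in 4 of 4 lines), the keratin Krt8 -0.14 (SE 0.09) and Anxa1 -0.11 (SE 0.08). Plasmin substrates had 3 of 7 genes tested, of which edgeR called 0 and DESeq2 with the block called Fn1. Fibronectin (Fn1) had 0.95 (SE 0.27, edgeR adjusted p = 0.401). Tgfb1 had 0.22 (SE 0.09; 0.13 to 0.31 with a line left out) and Bdnf 0.19 (SE 0.11; 0.066 to 0.28). Without line 1, where Fn1 was about level between constructs (0.03), its difference was 1.27 (SE 0.17, edgeR adjusted p = 0.0161).

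Between lines edgeR called 11 of the 29, against the same 24.8% of all genes. Line 1 stood above the mean of lines 2 to 4 12.1-fold in Sorl1, 8.60-fold in Spint1, 3.89-fold in Serpini1 and 2.81-fold in Fn1, with edgeR adjusted p of 0.00051, 0.00582, 0.0344 and 0.0266. Serpinb8, a serpin named here after its values were seen, went the other way, at 0.320 of that mean (edgeR adjusted p = 0.0115).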

How the data were processed

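Each library has 1 deposited file of raw read counts by gene. The submitters' processing notes name HTSeq, STAR, TopHat, Cufflinks and CASAVA and the build mm9, without versions or roles. Reads assigned to no gene, 11.4% to 20.6% of a file, were left out of library sizes and tests. Strand use in counting was not stated, so an overlapping or antisense gene can share reads.

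From the counts, edgeR 4.0.16 in R 4.3.3 (quasi-likelihood test, TMM scaling, default filter on low counts) gave log2 differences and p-values, adjusted by the Benjamini-Hochberg method over 16192 genes. The fits were constructs without the line, constructs with the line as a block, and lines with the construct as a covariate. The SE is the absolute log2 difference over the square root of F. Log2 CPM used a prior count of 2. Exon lengths are unions over GENCODE vM21, on GRCm38. DESeq2 1.42.0, limma-trend (limma 3.58.1), RLE scaling, no filter, a robust fit and leaving out each line were alternatives. The scripts were tested on simulated data. The genes, lists, motifs and rules were chosen with earlier results of these data known. The rule named the 7 genes, from each list of the wider genes up to 3 with the smallest p within lines, and the 2 most correlated genes per member, of which some are not reported here. Line numbers pair the libraries because both come from 1 cell line. Deviations from the group means correlated across genes at 0.770, 0.503, 0.468 and 0.347 in lines 1 to 4, but libraries of lines 2 and 4 also correlated across lines (0.430 and 0.364), so the check does not single out line 4. Nothing says that the libraries of 1 line came from separate cultures, so p-values measure only the spread between these samples.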

Additional observations from a re-analysis of the deposited data

Results flagged for a closer look

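Plau in line 1 lay far from the other libraries of its group with both constructs: 73.5 CPM with WT-USP21, where lines 2 to 4 had 14.5 to 16.0 CPM, and 82.0 CPM with ED-USP21, where they had 19.0 to 20.5 CPM. Of 14 groups of 4 libraries examined, these 2 stood apart in this way, where chance flags about 1 in 20. Both are the same gene in the same line, and the groups share the 4 lines. They are therefore not independent flags to set against that rate. Plaur differed in opposite directions by background label, with a mean log2 difference of 0.23 in lines 1 and 2 and -0.34 in lines 3 and 4, 0.57 apart. That difference was not tested, and in line 2 it was only 0.02.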

How the results depend on the processing

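Without the line term, the number of genes called was 0 in edgeR, 60 in DESeq2, 3 in limma-trend and 4 with the replicate block, and 0 to 383 with a line left out. With the block it was 4, but 58 with no low-count filter, 406 in DESeq2, 1 with a robust fit, 0 without the block and 0 to 746 with a line left out. Members called with the block were 0 but 2 in DESeq2 and 0 to 1 with a line left out. In edgeR with all lines the block changed no call of a member. Plat was called with the block and not without it in DESeq2 and in edgeR without line 1. DESeq2 called Plau with the block and gave it no adjusted p without the block. Between lines, 4019 genes were called, 6534 in DESeq2 and 65 to 3261 with a line left out, and 4 members became 0 to 3; the cause was not tested. Serpinb2 changed sign, from 0.12 to -0.11 with the replicate block and -0.11 in limma-trend, and spanned -0.25 to 0.33 (no block) and -0.45 to 0.17 (block) with a line left out. Plaur spanned -0.21 to 0.009 and -0.21 to 0.042, Ctsb -0.076 to 0.080 and -0.076 to 0.055, Vldlr without the block -0.23 to 0.001 and Ctsl with it -0.002 to 0.16. Plat spanned -0.42 to -0.36 and -0.41 to -0.36. The Serpine2 and Serpinb2 values are limited by reads: 182 and 724 over all libraries. In the wider list the same holds for Serpini1 and Prss8, with 413 and 712 reads.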
